A study of Homo sapiens with 8 samples.

Results

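Mucins and secreted ductal markers were followed in PANC1, an established human pancreatic cancer cell line, after targeting of the deubiquitinase BAP1 and after ionising radiation. The 10 genes were MUC1, MUC4, MUC5AC, MUC13, MUC16, MUC20, AGR2, TFF1, CEACAM6 and LCN2, and every array probe set annotated to exactly 1 of these symbols was taken. This gave 31 probe sets for 9 genes, out of 49293 non-control probe sets and 18132 genes with a probe set of their own. No probe set was annotated to MUC5AC alone, and this gel-forming mucin was not analysed here. The values are log2 expression values, so that 1 unit is a doubling.

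The 8 arrays fell into 4 groups of 2. The sgBAP1 + IR group held PANC1 cells with CRISPR/Cas9 targeting of BAP1 that received 10 Gy of ionising radiation (IR), and the sgBAP1 group held targeted cells without radiation. The IR group held irradiated cells of wild-type genotype, and the control group held untreated cells of wild-type genotype. RNA was taken 3 days after irradiation. The study describes a single BAP1 guide and a parental line that keeps one BAP1 copy, so that wild type means untargeted. The labels do not say whether control cells carried a non-targeting guide. No record says whether a group's arrays were separate cultures, and p-values measure only the spread between these samples, which may be technical. The BAP1 transcript was not analysed here.

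Mucins are large glycoproteins whose serine- and threonine-rich repeats carry dense O-linked sugar chains. Membrane mucins such as MUC1, MUC4, MUC13 and MUC16 are anchored in the apical surface and can be shed, whereas gel-forming mucins are secreted into the lumen. Normal pancreatic ducts make little of many mucins, while precursor lesions and ductal adenocarcinoma often gain MUC4, MUC5AC, MUC16, AGR2, TFF1, CEACAM6 and LCN2. MUC16 carries the CA125 epitope that is followed in serum in the clinic.

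Across all 31 probe sets, 2 stood out. MUC16 was lower in BAP1-targeted cells with and without radiation, by 1.93-fold in sgBAP1 + IR cells against control cells and by 2.25-fold in sgBAP1 cells against control cells. One of the 4 AGR2 probe sets was 2.03-fold lower in sgBAP1 cells than in control cells, while the brighter AGR2 probe sets were lower by at most 1.20-fold there. The other 29 probe sets spanned 0.10 to 0.48 log2 between their lowest and highest array. A probe set was called when its limma Benjamini-Hochberg adjusted p, over all 49293 probe sets, was under 0.05 and its fold change was over 1.5. In sgBAP1 cells against control cells 0 member probe sets were called higher and 2 lower, where 4.68% of all probe sets were called, 2.23% higher and 2.45% lower. In sgBAP1 + IR cells against control cells 1 was called lower, where 7.19% of all probe sets were called and 4.18% called lower. No member was called in IR cells against control cells by limma, where 3.05% of all were, and 6 of 31 had an unadjusted p under 0.05, beside 30.4% of all probe sets.

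**Figure D1:**
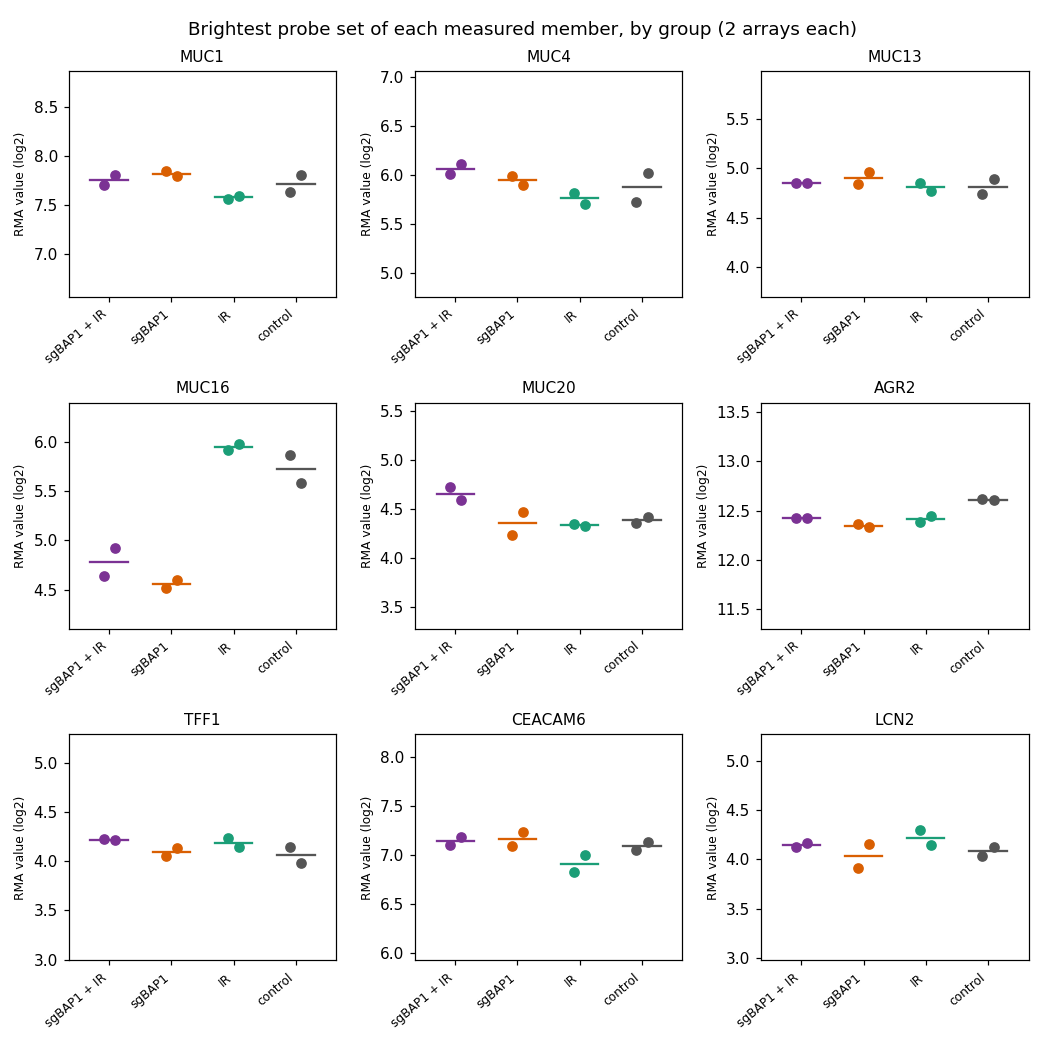
RMA values (log2, y axis) of the brightest probe set of each of the 9 measured genes on 2 arrays per group (points) with the group mean (line); every panel spans the same range around its own mean. MUC16 separated the BAP1-targeted groups, at 4.51 to 4.92, from the other groups, at 5.58 to 5.98, whereas the other genes moved by less than 0.5 log2.

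MUC16, a giant membrane mucin on chromosome 19 (8848844 to 9065751, RefSeq on GRCh38.p14, as for all positions here), was read by 1 probe set (11715343_at). It stood at 4.63 and 4.92 log2 in sgBAP1 + IR cells, at 4.51 and 4.60 in sgBAP1 cells, at 5.92 and 5.98 in IR cells and at 5.87 and 5.58 in control cells. All 4 arrays of BAP1-targeted cells lay below all 4 arrays of untargeted cells, and within each genotype the irradiated arrays lay above the others. The change in sgBAP1 cells against control cells was -1.17 ± 0.12 log2 (SE, n = 2 arrays per group, limma adjusted p = 0.000667). In sgBAP1 + IR cells against control cells it was -0.95 ± 0.12 (adjusted p = 0.00109). Against IR cells, sgBAP1 + IR cells differed by -1.17 ± 0.12 log2 (adjusted p = 0.00197), and MUC16 was the single member called in that comparison, where 1.81% of all probe sets were called and 1.05% called lower.

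Radiation gave no call for MUC16 in either genotype. The difference was 0.22 log2 in sgBAP1 + IR cells against sgBAP1 cells (95% interval -0.06 to 0.50), and 0.23 log2 in IR cells against control cells (95% interval -0.06 to 0.51). The interaction, the radiation change in sgBAP1 cells minus that in wild-type cells, was -0.00492 log2 with an interval of -0.40 to 0.39. The probe set had a mean above 5 log2 only in the IR and control groups, and the array lower quartiles lay at 4.30 to 4.39. In sgBAP1 cells MUC16 therefore sat just above the lower quartile, and a fold change near that level can be compressed. MUC16 stayed called in all 3 comparisons when any 1 of the 8 arrays was left out, in fits that take the spread of a lone array from the other groups. It was not called in any of them by the methods' t-test on the same pairs of arrays at the methods' threshold of 0.01.

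Likeness to MUC16 was sought among 2271 other genes with some group mean of at least 5 log2 and group means spanning at least 1.5-fold. The 3 genes with the closest pattern over the 8 arrays were FAM162A (Pearson r = 0.991), BRWD1 (r = 0.990) and GALC (r = 0.990). GALC encodes a lysosomal galactosylceramidase, BRWD1 a bromodomain protein and FAM162A a mitochondrial protein. GALC averaged 7.35 log2 in sgBAP1 + IR cells, 7.07 in sgBAP1 cells, 8.25 in IR cells and 8.12 in control cells, and its sgBAP1 change was -1.05 ± 0.07 log2 (limma adjusted p = 0.000127). FAM162A and BRWD1 differed by -0.53 ± 0.06 and -0.50 ± 0.07 log2 in sgBAP1 cells against control cells, under the fold threshold. These correlations share 8 arrays in 4 groups and were selected as the highest, and they describe likeness only.

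The MUC16 promoter is shown because MUC16 was the mucin that was called. It comes from RefSeq (GRCh38.p14), from 250 bases before to 50 after the annotated start on the minus strand, chr19:9065702-9066001, written 5′ to 3′. The same 6 motifs were searched on both strands in 7 of the 10 genes, which were matched to a promoter of this kind (MUC5AC, MUC20 and TFF1 were not matched): TATAAA, the AP-1 motif TGANTCA, the forkhead motif TGTTTAC, the GATA motif AGATAA, the NF-kB consensus and the E-box CANNTG. Matches other than the E-box are in capitals. The MUC16 window held 4 E-boxes and no match to the other 5 motifs. E-boxes were present in 68.7% of 35116 promoters of this length.
MUC16: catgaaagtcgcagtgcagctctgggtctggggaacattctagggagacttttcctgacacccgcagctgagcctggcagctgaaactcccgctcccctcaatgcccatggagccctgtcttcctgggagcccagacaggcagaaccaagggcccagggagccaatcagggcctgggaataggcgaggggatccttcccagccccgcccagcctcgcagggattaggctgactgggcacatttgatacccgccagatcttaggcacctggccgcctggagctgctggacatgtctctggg

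MUC1, the epithelial membrane mucin whose cytoplasmic tail takes part in signalling, lies on chromosome 1 (155185824 to 155192915) and had 13 probe sets. Of these, 12 carry the design suffix that marks probes able to bind other sequences, and all 13 read one gene, so that they count as repeated readings and not as replicates. The brightest stood at 7.70 and 7.81 log2 in sgBAP1 + IR cells, at 7.84 and 7.80 in sgBAP1 cells, at 7.57 and 7.59 in IR cells and at 7.63 and 7.81 in control cells. The IR arrays were the lowest and every other group overlapped with control. In IR cells against control cells 11 of the 13 were lower, by up to 0.20 log2, and none was called (smallest limma adjusted p = 0.0775). Set against the same IR arrays, 12 of the 13 were higher in sgBAP1 + IR cells. The probe set with the smallest p there, a dimmer one, stood at 7.12 and 7.24 in sgBAP1 + IR cells and at 6.87 and 6.96 in IR cells, a difference of 0.27 ± 0.06 log2 (adjusted p = 0.0291) under the fold threshold. The 95% intervals of the MUC1 probe sets reached from -0.28 to 0.40 log2 in sgBAP1 cells against control cells, and from -0.24 to 0.35 in sgBAP1 + IR cells against control cells.

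MUC4, a membrane mucin that binds the receptor ERBB2, lies on chromosome 3 (195746771 to 195811929) near MUC20 and had 2 probe sets. The brighter stood at 6.01 and 6.12 log2 in sgBAP1 + IR cells, at 5.99 and 5.90 in sgBAP1 cells, at 5.82 and 5.71 in IR cells and at 5.73 and 6.02 in control cells. The control arrays overlapped with every other group. The largest MUC4 difference between 2 groups was 0.30 log2, in sgBAP1 + IR cells against IR cells (95% interval up to 0.54, limma adjusted p = 0.0968). In sgBAP1 cells against control cells the intervals of both probe sets lay between -0.36 and 0.32 log2.

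MUC13, a membrane mucin of the gut surface on chromosome 3 (124905442 to 124934751), stood at 4.85 on both sgBAP1 + IR arrays, at 4.84 and 4.96 in sgBAP1 cells, at 4.85 and 4.77 in IR cells and at 4.74 and 4.89 in control cells for its brighter probe set. Each other group overlapped with the control arrays. The other MUC13 probe set lay between 3.09 and 3.24 log2 on all arrays, below the lower quartile of every array. No MUC13 difference exceeded 0.09 log2 in sgBAP1 cells against control cells, with intervals from -0.15 to 0.26.

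MUC20, a membrane mucin that binds the receptor MET, lies on chromosome 3 (195720978 to 195733551) and had 4 probe sets, all with group means under 5 log2. The brightest stood at 4.72 and 4.59 in sgBAP1 + IR cells, at 4.24 and 4.47 in sgBAP1 cells, at 4.34 and 4.33 in IR cells and at 4.35 and 4.42 in control cells. Both sgBAP1 + IR arrays were the highest. The difference was 0.27 ± 0.09 log2 in sgBAP1 + IR cells against control cells (limma adjusted p = 0.0490) and 0.32 ± 0.09 against IR cells (adjusted p = 0.0467). A second MUC20 probe set was higher by 0.32 ± 0.08 log2 in sgBAP1 + IR cells against control cells (adjusted p = 0.0173), at 3.94 and 4.02 in sgBAP1 + IR cells and 3.74 and 3.57 in control cells. Both passed the p threshold and not the fold threshold. In sgBAP1 + IR cells against control cells 6 of 31 member probe sets passed the p threshold alone, beside 33.3% of all probe sets. The other 2 MUC20 probe sets, whose suffix marks probes shared between transcripts, did not pass in any comparison.

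**Figure D2:**
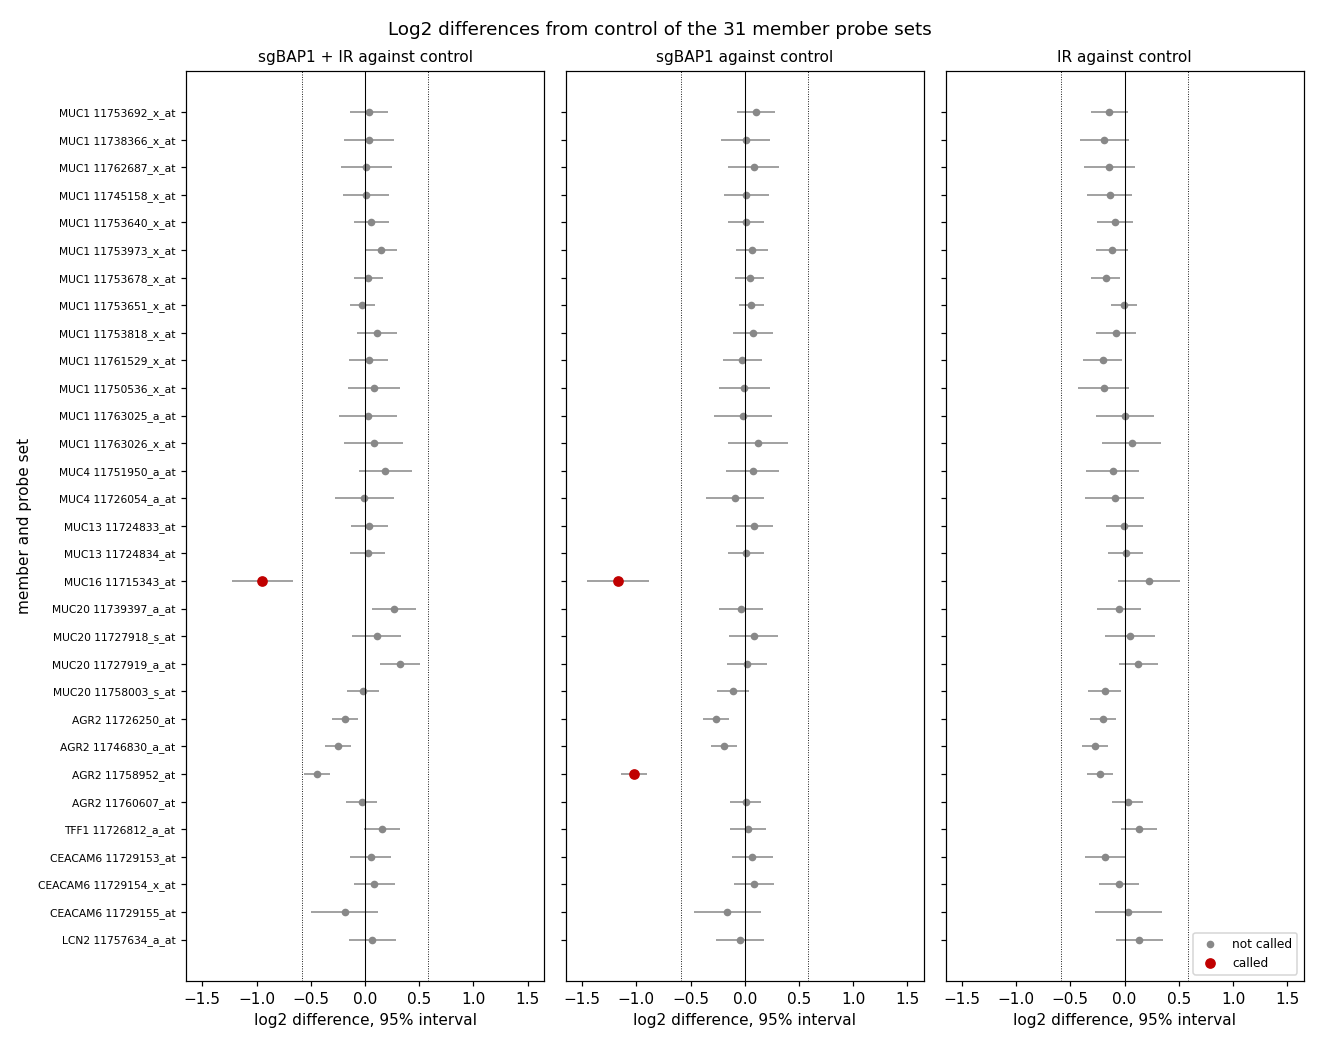
Log2 difference from control (x axis) with its 95% interval (bar) for each of the 31 probe sets (rows), in sgBAP1 + IR, sgBAP1 and IR cells; dotted lines mark the fold threshold of 1.5 and red points the called probe sets. MUC16 was called in both BAP1-targeted groups, at -0.95 and -1.17 log2, and 1 AGR2 probe set in sgBAP1 cells, at -1.02 log2.

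AGR2, a protein disulphide isomerase of the endoplasmic reticulum that is needed for mucin folding and is also secreted, lies on chromosome 7 (16791811 to 16804999). Its 4 probe sets differed in the size of the change. The brightest (11726250_at) stood at 12.42 and 12.43 log2 in sgBAP1 + IR cells, at 12.36 and 12.33 in sgBAP1 cells, at 12.38 and 12.44 in IR cells and at 12.61 on both control arrays, which is in the top 2 percent of each array. All treated arrays lay below both control arrays. The changes against control cells were -0.18 ± 0.05 log2 in sgBAP1 + IR cells, -0.26 ± 0.05 in sgBAP1 cells and -0.20 ± 0.05 in IR cells, with limma adjusted p of 0.0276, 0.00822 and 0.0339, all under the fold threshold. The second probe set (11746830_a_at), near 10 log2, differed by -0.25, -0.19 and -0.28 log2 in the same groups.

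The third AGR2 probe set (11758952_at) moved further. It stood at 8.41 and 8.43 log2 in sgBAP1 + IR cells, at 7.87 and 7.81 in sgBAP1 cells, at 8.64 and 8.63 in IR cells and at 8.86 and 8.88 in control cells. The 4 groups did not overlap, and sgBAP1 cells without radiation were the lowest. The change in sgBAP1 cells against control cells was -1.02 ± 0.05 log2 (limma adjusted p = 7.0e-05). In sgBAP1 + IR cells and in IR cells against control cells it was -0.44 ± 0.05 and -0.23 ± 0.05 log2 (adjusted p = 0.000677 and 0.0216), which did not reach the fold threshold. The fourth AGR2 probe set (11760607_at) lay between 3.23 and 3.34 log2 on every array, near the bottom of the range, and its changes against control cells were within 0.03 log2.

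Radiation and BAP1 targeting combined unequally in the third AGR2 probe set. It was higher by 0.58 ± 0.05 log2 in sgBAP1 + IR cells than in sgBAP1 cells (limma adjusted p = 0.000632), a fold of 1.496 that fell just short of 1.5, so that limma called no member in this comparison, where 3.09% of all probe sets were called. There 3 of 31 member probe sets had an unadjusted p under 0.05, beside 33% of all probe sets. The interaction was 0.81 ± 0.07 log2 (adjusted p = 0.0183), and this was the single member called higher, where 0.442% of all probe sets were called and 0.11% were called higher. Leaving out any 1 of the 8 arrays kept the interaction between 0.78 and 0.84 log2 but raised its adjusted p to 0.0631 to 0.125. The same interaction was 0.28 ± 0.07 and 0.22 ± 0.07 log2 in the 2 brighter AGR2 probe sets (adjusted p = 0.124 and 0.198). When the AGR2 probe sets were averaged, no interaction was called. Which AGR2 transcripts each probe set reads was not tested.

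**Figure D3:**
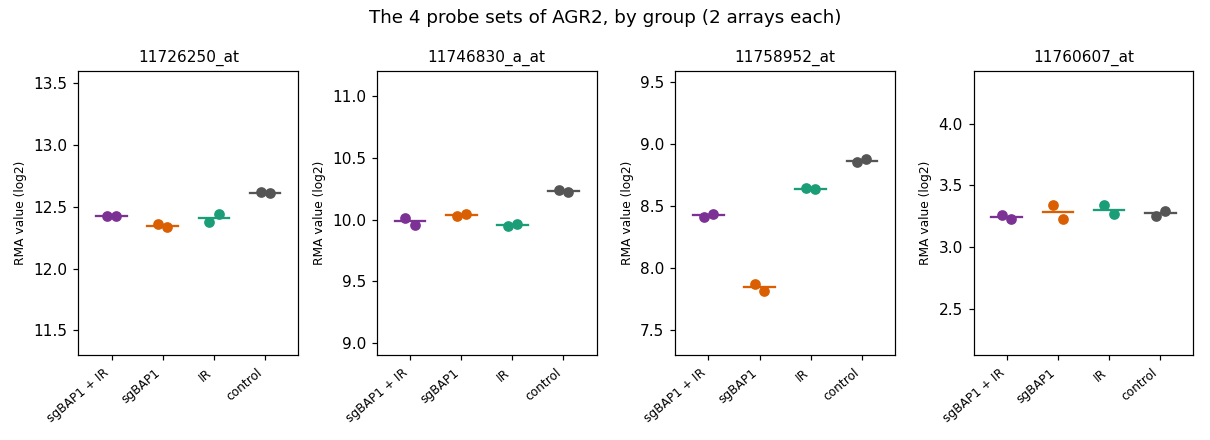
RMA values (log2, y axis) of the 4 AGR2 probe sets (panels) on 2 arrays per group (points) with the group mean (line), each panel spanning the same range. The third panel shows the called drop in sgBAP1 cells, to a mean of 7.84 against 8.87 in control cells, which the 2 brighter probe sets had at 0.26 and 0.19 log2.

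The AGR2 promoter is shown for comparison with that of MUC16, since both genes had a called probe set. It is given as above, on the minus strand at chr7:16804950-16805249 of GRCh38.p14. The capitals mark an AGATAA match at positions -119 to -114 from the start, a motif found in 10.3% of all promoters of this length, and the window also held 3 E-boxes.
AGR2: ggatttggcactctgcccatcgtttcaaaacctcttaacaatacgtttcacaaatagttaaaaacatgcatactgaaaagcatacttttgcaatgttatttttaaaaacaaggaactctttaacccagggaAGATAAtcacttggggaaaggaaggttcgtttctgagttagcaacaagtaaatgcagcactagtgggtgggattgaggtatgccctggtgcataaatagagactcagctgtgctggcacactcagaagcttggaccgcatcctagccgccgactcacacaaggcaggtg

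TFF1, a small secreted trefoil peptide that is packed with mucins, lies on chromosome 21 (42362282 to 42366535). Its probe set stood at 4.22 on both sgBAP1 + IR arrays, at 4.05 and 4.13 in sgBAP1 cells, at 4.24 and 4.14 in IR cells and at 4.14 and 3.98 in control cells. All were below the array lower quartiles. The difference in sgBAP1 + IR cells against control cells was 0.16 log2 with a 95% interval of -0.01 to 0.32 (limma adjusted p = 0.129), and in sgBAP1 cells against control cells it was 0.03 log2 (-0.13 to 0.20).

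CEACAM6, a lipid-anchored adhesion protein of the carcinoembryonic antigen family, lies on chromosome 19 (41755530 to 41772211). It stood at 7.10 and 7.18 log2 in sgBAP1 + IR cells, at 7.09 and 7.23 in sgBAP1 cells, at 6.83 and 6.997 in IR cells and at 7.05 and 7.13 in control cells for its brightest probe set. The IR arrays were the lowest and the other groups overlapped. In the comparisons of 2 groups that were tested, the largest difference among the 3 CEACAM6 probe sets was 0.23 log2. It was in sgBAP1 + IR cells against IR cells (limma adjusted p = 0.0967). In IR cells against control cells the brightest was lower by 0.18 log2, without a call (adjusted p = 0.183). The dimmest CEACAM6 probe set, between 3.45 and 3.89 log2, had the widest interval in sgBAP1 cells against control cells, from -0.47.

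LCN2, a secreted lipocalin that binds bacterial siderophores and is induced in inflamed epithelia, lies on chromosome 9 (128149453 to 128153453). Its probe set stood at 4.13 and 4.17 log2 in sgBAP1 + IR cells, at 3.91 and 4.16 in sgBAP1 cells, at 4.30 and 4.14 in IR cells and at 4.04 and 4.13 in control cells. All 8 values lay below the lower quartile of their array, and the sgBAP1 arrays overlapped with the control arrays. The lowest sgBAP1 + IR array, at 4.130, was almost level with the highest control array, at 4.127. Its change was 0.07 log2 (95% interval -0.15 to 0.28) in sgBAP1 + IR cells, -0.05 (-0.26 to 0.17) in sgBAP1 cells and 0.14 (-0.08 to 0.36) in IR cells against control cells.

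Some genes known to be induced with LCN2 in epithelia were called in these same cells. Of 18 measured genes of this acute-phase and NF-kB list, 6 were called higher and none lower in sgBAP1 + IR cells, 5 higher and none lower in sgBAP1 cells, and 5 higher and none lower in IR cells, each against control cells, while 12, 13 and 13 were not called. Over all 18132 genes 8.01% were called in sgBAP1 + IR cells, 4.94% in sgBAP1 cells and 3.58% in IR cells, in either direction. The list medians were 0.20, 0.13 and 0.02 log2, beside 0.03, 0.00 and -0.00 over all genes. Of the 18 genes, 6 had all group means under 5 log2, as LCN2 did. NFKBIZ, a co-activator of NF-kB that LCN2 transcription is known to need, stood at 8.85 and 9.003 log2 in sgBAP1 + IR cells, at 7.83 and 7.89 in sgBAP1 cells, at 8.21 and 8.17 in IR cells and at 6.92 and 6.89 in control cells. Its change in sgBAP1 + IR cells against control cells was 2.02 ± 0.07 log2 (limma adjusted p = 6.13e-06). The chemokine CXCL8 was higher by 2.65 ± 0.06 log2 in sgBAP1 + IR cells and by 2.32 ± 0.06 in sgBAP1 cells than in control cells. In IR cells it was higher by 1.25 ± 0.06 than in control cells. CCL20, another chemokine, was higher by 2.48 ± 0.19 log2 in sgBAP1 + IR cells, by 2.26 ± 0.19 in sgBAP1 cells and by 1.57 ± 0.19 in IR cells than in control cells. CEBPD, a transcription factor of the acute phase, was higher by 1.70 ± 0.07 in sgBAP1 + IR cells and by 1.93 ± 0.07 in IR cells than in control cells. The complement gene C3 was higher by 1.42 ± 0.15 log2 in IR cells than in control cells. Its control arrays stood at 4.23 and 4.32, near the array lower quartiles of 4.30 to 4.39. The chemokine CXCL1 was higher by 1.54 ± 0.07 in sgBAP1 cells than in control cells. It averaged 8.20 log2 in sgBAP1 + IR cells, 9.15 in sgBAP1 cells, 7.16 in IR cells and 7.61 in control cells.

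**Figure D4:**
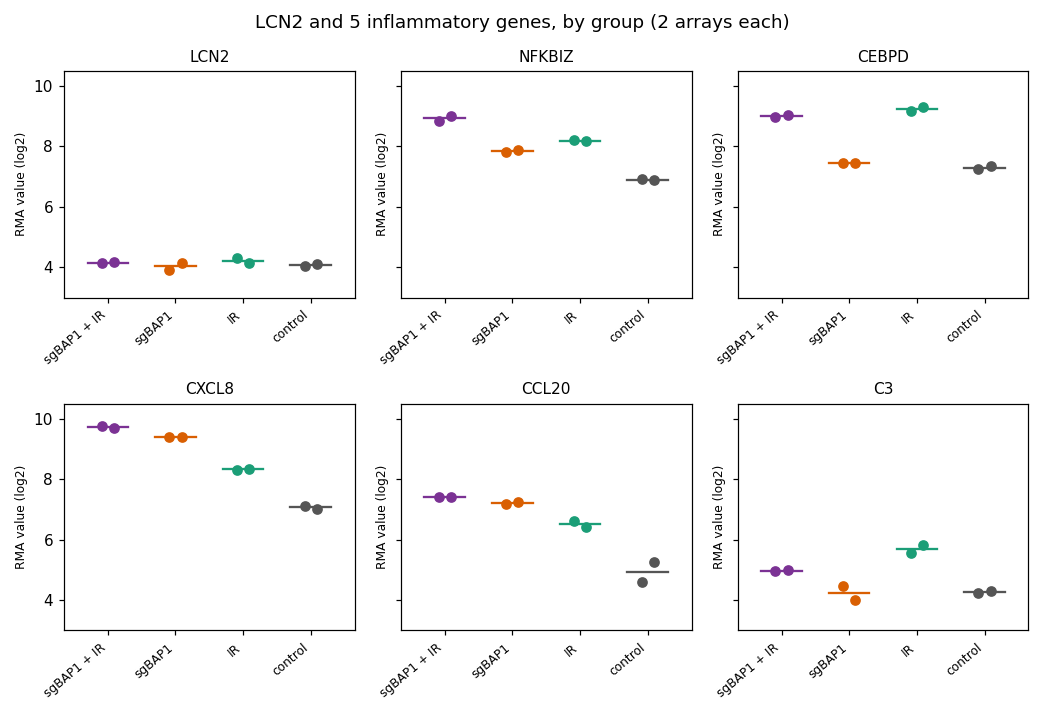
RMA values (log2, y axis, shared scale) of LCN2 and 5 inflammatory genes (panels) on 2 arrays per group (points) with the group mean (line); levels of different probe sets are not comparable. LCN2 stayed between 3.91 and 4.30 log2 on all 8 arrays, below the lower quartile of each, whereas NFKBIZ ranged between 6.89 and 9.003. The 5 genes shown were among those called higher in sgBAP1 + IR cells against control cells, where 12 of the 18 listed genes were not called.

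The LCN2 promoter is shown because it holds an NF-kB consensus match. It is on the plus strand at chr9:128149203-128149502 of GRCh38.p14. The capitals mark that match, at positions -175 to -166 from the start, and an AP-1 match (TGANTCA) at -52 to -46. The NF-kB consensus was present in 11.3% and the AP-1 motif in 7.71% of all promoters of this length, and LCN2 was the one promoter of the 7 with the NF-kB match. A letter match is not evidence of binding.
LCN2: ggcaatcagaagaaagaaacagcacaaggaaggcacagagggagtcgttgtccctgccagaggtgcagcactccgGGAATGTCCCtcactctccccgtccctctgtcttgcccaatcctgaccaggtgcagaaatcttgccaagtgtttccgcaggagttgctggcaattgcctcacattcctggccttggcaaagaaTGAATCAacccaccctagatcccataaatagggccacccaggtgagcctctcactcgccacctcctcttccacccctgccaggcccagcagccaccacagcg

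None of 12 other measured mucins and none of 15 measured relatives of the trefoil, AGR, CEACAM and lipocalin families was called by limma in any of the 6 comparisons. The share called over all genes was 8.01% in sgBAP1 + IR cells, 4.94% in sgBAP1 cells and 3.58% in IR cells against control cells, 3.19% in sgBAP1 + IR cells against sgBAP1 cells, 2.12% against IR cells and 0.463% for the interaction, so that about 1 call or none would match these shares in lists of this size. MUC5B, a gel-forming mucin of airways, stood at 5.92 and 5.91 log2 in sgBAP1 + IR cells, at 5.70 and 5.76 in sgBAP1 cells, at 5.87 and 5.89 in IR cells and at 5.84 and 5.92 in control cells. Of the 12 mucins 5 and of the 15 relatives 7 had all group means under 5 log2. The 31 member probe sets had a median change of 0.04 log2 in sgBAP1 + IR cells, 0.01 in sgBAP1 cells and -0.09 in IR cells against control cells, beside 0.02, 0.00 and -0.00 over all probe sets.

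Among the transcription factors of secretory and ductal cells, 17 were measured. In sgBAP1 + IR cells and in sgBAP1 cells against control cells 2 were called higher and 1 lower in each, and in IR cells 2 were called higher, beside 8.01%, 4.94% and 3.58% of all genes in sgBAP1 + IR, sgBAP1 and IR cells. KLF4, which drives epithelial differentiation, was higher by 2.18 ± 0.08 log2 in sgBAP1 + IR cells, by 1.17 ± 0.08 in sgBAP1 cells and by 1.37 ± 0.08 in IR cells than in control cells. Its control arrays stood at 4.54 and 4.34, near the array lower quartiles of 4.30 to 4.39. GATA6, a marker of the classical pancreatic cancer subtype, was higher by 1.78 ± 0.08 log2 in sgBAP1 + IR cells, by 0.97 ± 0.08 in sgBAP1 cells and by 1.25 ± 0.08 in IR cells. CREB3L4, a membrane-bound factor of the endoplasmic reticulum, differed by -1.14 ± 0.10 log2 in sgBAP1 + IR cells and by -0.98 ± 0.10 in sgBAP1 cells against control cells.

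Of 19 measured enzymes that extend or cap O-linked chains, 1 was called higher and 2 lower in sgBAP1 + IR cells against control cells, in sgBAP1 cells 0 higher and 1 lower, and in IR cells 1 higher and 0 lower, which in sgBAP1 and IR cells is near the 4.94% and 3.58% of all genes called (8.01% in sgBAP1 + IR cells). ST3GAL1, a sialyltransferase that caps the core chain, was higher by 1.27 ± 0.11 log2 in sgBAP1 + IR cells and by 0.92 ± 0.11 in IR cells than in control cells. ST6GALNAC2, another sialyltransferase, differed by -0.62 ± 0.17 log2 in sgBAP1 + IR cells and by -0.96 ± 0.17 in sgBAP1 cells against control cells. It stood at 4.17 and 4.27 in sgBAP1 cells, below the array lower quartiles of 4.30 to 4.39. Its control arrays lay apart, at 5.43 and 4.93. C1GALT1C1, the chaperone of the core 1 synthase, differed by -0.69 ± 0.09 in sgBAP1 + IR cells against control cells.

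Binding partners and sheddases held 2 called genes. ICAM1, to which MUC1 can bind, was higher by 2.05 ± 0.09 log2 in sgBAP1 + IR cells, by 1.02 ± 0.09 in sgBAP1 cells and by 1.597 ± 0.09 in IR cells than in control cells. LGALS3, a galectin that binds mucin sugars, was higher by 0.92 ± 0.05 in sgBAP1 + IR cells and by 0.79 ± 0.05 in IR cells than in control cells. In all, 2 of 15 were called higher in sgBAP1 + IR cells, 1 in sgBAP1 cells and 2 in IR cells, with none lower, beside the 8.01%, 4.94% and 3.58% of all genes called in those groups.

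The label of these genes as ductal was set against 26 other ductal and mucinous markers, of which 11 had all group means under 5 log2. In sgBAP1 + IR cells against control cells 2 of the 26 were called higher, 1 lower and 23 not. In sgBAP1 cells these counts were 0, 1 and 25, and in IR cells 3, 1 and 22. Over all genes 8.01%, 4.94% and 3.58% were called in sgBAP1 + IR, sgBAP1 and IR cells. The list medians were 0.16, 0.04 and 0.08 log2, beside 0.03, 0.00 and -0.00 over all genes. The ductal keratins KRT8, KRT18 and KRT19 lay between 10.64 and 13.85 log2 on all arrays, and KRT7 lay between 5.83 and 7.50. KRT19 was higher by 1.23 ± 0.05 log2 in sgBAP1 + IR cells and by 1.12 ± 0.05 in IR cells than in control cells, and KRT7 by 1.56 ± 0.07 and 0.80 ± 0.07 in those groups. KRT8 was higher by 0.59 ± 0.05 in IR cells than in control cells. CDH1, the epithelial cadherin, stood at 5.13 and 5.08 log2 in sgBAP1 + IR cells, at 4.57 and 4.99 in sgBAP1 cells, at 6.41 and 6.25 in IR cells and at 7.20 and 7.09 in control cells. Its changes against control cells were -2.05, -2.37 and -0.82, each ± 0.13. Of the 9 measured members of the mucin and ductal set itself, 4 (MUC13, MUC20, TFF1 and LCN2) had every probe set under 5 log2 in all groups, in the lower part of the array's range.

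In these bulk RNA samples fewer cells that make a transcript and less RNA per cell cannot be told apart. Of 9 immune markers 6 had all group means under 5 log2, among them PTPRC, the pan-leukocyte antigen, at 3.31 to 3.599. The mean over the immune list per array lay at 4.77 in sgBAP1 + IR cells, 4.82 to 4.85 in sgBAP1 cells, 4.70 to 4.76 in IR cells and 4.75 to 4.76 in control cells. Among these, CD68, a lysosomal protein of macrophages and other cells, was higher by 0.93 ± 0.08 log2 in sgBAP1 cells and differed by -0.63 ± 0.08 in IR cells, each against control cells. Of 8 fibroblast markers 5 were dim and 1 was called, COL1A1, at -1.17 ± 0.06 in sgBAP1 + IR cells, -0.61 ± 0.06 in sgBAP1 cells and -0.85 ± 0.06 in IR cells against control cells. Of 7 measured neuroendocrine markers 4 were dim and CHGB was called, higher by 1.1 ± 0.06 in IR cells than in control cells, while of 7 measured acinar markers 3 were dim and none was called. Among 11 measured housekeeping genes, B2M, the light chain of class I histocompatibility molecules, was called, higher by 0.73 ± 0.05 log2 in sgBAP1 + IR cells than in control cells. Over all genes 8.01%, 4.94% and 3.58% were called in sgBAP1 + IR, sgBAP1 and IR cells against control cells. At these shares, marker lists of this size would hold about 1 call or none. The part of the marker differences in the MUC16 and AGR2 values was not tested.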

How the data were processed

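Biotin-labelled RNA from PANC1 cells was hybridised to Affymetrix PrimeView 3′ IVT arrays. The table deposited by the authors holds log2 values made by the RMA algorithm, with background subtraction and quantile normalisation. Probe set suffixes were read as the array design gives them. Gene names came from the platform annotation, which can be old, and coordinates and promoters from RefSeq on GRCh38.p14. Of 49293 non-control probe sets, 44988 carried 1 gene symbol, 1832 several and 2473 none. Array medians were 6.12 to 6.15 log2, and Pearson correlations were 0.998 to 0.9985 within groups and 0.9881 to 0.9952 between them. The number of arrays limits the precision.

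All probe sets entered a fit in limma 3.58.1 (R 4.3.3) as 4 group means over 8 arrays, with 4 residual and 3.22 prior degrees of freedom and a median residual SD of 0.0787 log2. Errors are limma standard errors. The fit was tested on data simulated with independent normal noise and planted changes, which cannot show how technical repeats would affect the calls. The methods name an unadjusted p under 0.01 and a fold over 1.5, and, for the study, the methods' t-test. A gene in a list was read by its brightest probe set. The members and lists were chosen with earlier results of these data known. Named were all members, up to 4 called genes per list and comparison with control with the largest changes, and the 3 genes most like a called brightest member. MUC5B, PTPRC and the motifs were added as examples.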

Additional observations from a re-analysis of the deposited data

Results flagged for a closer look

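The third AGR2 probe set changed differently with radiation in the 2 genotypes, by a test of the difference itself. Neither of its radiation changes reached the fold threshold. The probe set was higher by 0.58 log2 in sgBAP1 + IR cells than in sgBAP1 cells. In IR cells against control cells it differed by -0.23 log2. The interaction was 0.81 ± 0.07 log2 (limma adjusted p = 0.0183). This call was lost when any 1 of the 8 arrays was left out (adjusted p = 0.0631 to 0.125) and when the AGR2 probe sets were averaged. The other AGR2 probe sets gave 0.28, 0.22 and -0.07 log2 for the same interaction, without a call. The cause of the difference between probe sets was not tested.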

How the results depend on the processing

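No paired analysis was possible because no replicate number links a sample of one group to another. Leaving out 1 array at a time, with the lone array of that group assumed to vary like the other groups, gave 2 calls throughout in sgBAP1 against control, 1 in sgBAP1 + IR against control and against IR, 0 in IR against control, 0 to 1 in sgBAP1 + IR against sgBAP1 and 0 throughout for the interaction. The call in sgBAP1 + IR against sgBAP1 was the third AGR2 probe set without sgBAP1 replicate 1 (0.61 log2) or sgBAP1 + IR replicate 1 (0.59), and also after further quantile normalisation (0.61, 1 call). With no fold threshold, 6 of 31 member probe sets passed in sgBAP1 + IR against control, beside 33.3% of all probe sets. By the same rule 4 passed in sgBAP1 against control and 3 in IR against control. In sgBAP1 + IR, 2 passed against sgBAP1 and 5 against IR. The share over all probe sets was not counted for these 4 comparisons, so their counts are not read as changes of the members. The methods' t-test at p under 0.01 gave 1 call in sgBAP1 against control (AGR2) and 0 in sgBAP1 + IR against control and against IR, and 0 in all 3 after adjustment. When probe sets were averaged, 1 gene (MUC16) was called in sgBAP1 against control and 0 for the interaction. Fitting only the groups compared, median centring, a filter on dim probe sets a trended robust prior and limma's unadjusted p under 0.01 kept the counts within 1.5 times; the methods' t-test and the fit of only the groups compared do not apply to the interaction.

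A total of 42 values changed sign under an alternative, none of them called and none over 0.14 log2 there, and each is given for the brightest probe set of its gene. The range over arrays left out is given for every result with such a change. Where that range keeps its sign, the change came from averaging probe sets or from further quantile normalisation. In sgBAP1 against control, the range over arrays left out was 0.00128 to 0.14 for CEACAM6, -0.17 to 0.077 for LCN2, -0.15 to 0.084 for MUC20, -0.0748 to 0.22 for MUC4 and -0.0475 to 0.11 for TFF1. In IR against control, the range over arrays left out was -0.0782 to 0.0732 for MUC13 and -0.26 to 0.0378 for MUC4. In sgBAP1 + IR against control, the range over arrays left out was 0.00972 to 0.0916 for CEACAM6, -0.0531 to 0.12 for MUC1 and -0.0372 to 0.11 for MUC13. In sgBAP1 + IR against sgBAP1, the range over arrays left out was -0.0864 to 0.0494 for CEACAM6, -0.0107 to 0.23 for LCN2, -0.12 to -0.0136 for MUC1 and -0.11 to 0.01003 for MUC13. In sgBAP1 + IR against IR, the range over arrays left out was -0.0128 to 0.0471 for AGR2, -0.15 to 0.00465 for LCN2, 0.00175 to 0.0803 for MUC13 and -0.0162 to 0.0756 for TFF1. For the interaction, the range over arrays left out was -0.15 to 0.0968 for LCN2, -0.0158 to 0.16 for MUC1, -0.12 to 0.0294 for MUC13, -0.15 to 0.14 for MUC16 and -0.0809 to 0.0772 for TFF1. Averaging the probe sets of a gene gave 0.00469 for MUC13 (IR against control), -0.0569 for AGR2 (sgBAP1 + IR against IR), -0.0162 for CEACAM6 (sgBAP1 + IR against control), 0.00658 for MUC1 (sgBAP1 + IR against sgBAP1), -0.00271 for CEACAM6 (sgBAP1 against control) and -0.00902 for MUC4 (sgBAP1 against control). Further quantile normalisation gave -0.00945 for MUC13 (sgBAP1 + IR against IR), -0.027 for TFF1 (sgBAP1 + IR against IR) and -0.0325 for MUC13 (sgBAP1 + IR against control). With 2 arrays per group, the 95% intervals of uncalled members in comparisons with control lay between -0.56 and 0.51 log2, and smaller differences may have gone undetected.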
